A study of Mus musculus with 12 samples.

Results

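The 9 genes described here handle glycogen in mouse liver: the glycogen synthase gene Gys2, the branching enzyme gene Gbe1, the UDP-glucose enzyme gene Ugp2, the primer gene Gyg, the phosphorylase gene Pygl, the phosphorylase kinase gene Phka2, and the phosphatase-targeting genes Ppp1r3b, Ppp1r3c and Ppp1r3g. They were taken by gene symbol, and all 9 were found among the 24787 symbols of the count tables. All 9 also had enough counts to be tested, as had 14172 genes in all. The libraries came from livers of C57Bl/6 mice in 3 groups of 4. HFD+MEC1 mice ate a high-fat diet and received MEC1, for which the sources used here give only this code name, at 0.5 mg/kg by daily intraperitoneal injection. HFD mice ate the same diet and were injected with vehicle, and the high-fat mice had been divided at random between vehicle and MEC1 after 2 months of feeding. ND mice ate a normal diet. How long injections went on, and whether ND mice were injected, is not given in the sources used here, so HFD minus ND carries any effect of the injections. Sex and age are not given either, and no label says that the libraries of a group came from separate animals, so p-values measure the spread between these libraries, which may be technical in part.

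The liver stores glucose as glycogen after meals and releases it between meals. Glucose phosphate is turned into UDP-glucose by the enzyme of Ugp2, the glycogenin protein of Gyg starts a chain, glycogen synthase lengthens it and the branching enzyme adds branch points. Glycogen phosphorylase, switched on by phosphorylase kinase, removes glucose units. The Ppp1r3 proteins bring protein phosphatase 1 to the glycogen particle, where it activates the synthase and shuts off phosphorylase. Enzyme activity depends strongly on phosphorylation and on glucose phosphate, and glycogen itself was not measured; all values here are mRNA levels.

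Library totals ran from 39916405 to 51340317 counts. Levels of a gene between libraries are given in CPM, counts scaled to library size with TMM factors, levels between genes in the authors' RPKM, which also divides by gene length, and differences as log2 fold changes with their SE; a change was called at an adjusted p under 0.05 (edgeR quasi-likelihood test, adjusted over all tested genes). On the first principal component, with 23.2% of the variance among tested genes, HFD+MEC1 replicate 1 lay at 21.7. The rest of its group lay at -7.88 to 7.63 and the HFD libraries at 13.9 to 41.2. HFD+MEC1 replicate 3 stood apart on the second principal component, with 18.1% of the variance. It lay at -55.9 there, and the other libraries between -26.7 and 24.6. In that library the summed level of the 7 measured hepatocyte markers, of 8 listed, was 73100 CPM, while the rest of its group had 84000 to 98400 CPM, HFD 90000 to 102000 CPM and ND 90500 to 106000 CPM. For the 9 genes, differences of HFD+MEC1 from the other groups whose sign or call it changed, or whose size it moved by 1.5 times or more, are also given without it. Skeletal muscle markers, relevant because muscle has its own glycogen enzymes, summed to at most 0.0863 CPM in any library.

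Promoter windows around transcript starts given by RefSeq (GRCm38.p6) were matched for 7 of the 9 genes, with 2 windows for Ugp2; Gys2 and Ppp1r3b had no match. These starts can differ from the outer ends of the GENCODE genes given further on: the windows of Pygl and Ppp1r3g lie inside the GENCODE gene, and the printed window of Ugp2 lies just outside it. The windows of 3 genes are printed: Gbe1 and Ugp2, whose HFD libraries were all above ND, and for contrast Ppp1r3c, whose libraries overlapped. For Ugp2 the upstream window is shown. Capitals mark matches on either strand to the 5 motifs searched: the E-box CACGTG, the cyclic AMP response element TGACGTCA, the FOXO core GTAAACA, the GC box GGGCGG and the CCAAT box. The windows are chr16:70313699-70313998 on the plus strand for Gbe1, chr11:21371218-21371517 on the minus strand for Ugp2 and chr19:36736555-36736854 on the minus strand for Ppp1r3c.
Gbe1: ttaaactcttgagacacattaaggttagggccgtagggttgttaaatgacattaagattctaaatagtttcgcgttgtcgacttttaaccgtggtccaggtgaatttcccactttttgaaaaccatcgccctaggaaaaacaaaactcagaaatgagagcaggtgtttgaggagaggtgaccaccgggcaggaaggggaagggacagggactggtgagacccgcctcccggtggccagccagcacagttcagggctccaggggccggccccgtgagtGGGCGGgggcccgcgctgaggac
Ugp2: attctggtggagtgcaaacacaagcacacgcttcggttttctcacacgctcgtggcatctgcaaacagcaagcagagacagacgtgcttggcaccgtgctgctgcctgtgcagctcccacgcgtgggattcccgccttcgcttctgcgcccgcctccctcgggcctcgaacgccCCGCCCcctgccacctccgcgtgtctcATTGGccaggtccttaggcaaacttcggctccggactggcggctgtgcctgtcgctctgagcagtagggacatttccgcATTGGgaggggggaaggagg
Ppp1r3c: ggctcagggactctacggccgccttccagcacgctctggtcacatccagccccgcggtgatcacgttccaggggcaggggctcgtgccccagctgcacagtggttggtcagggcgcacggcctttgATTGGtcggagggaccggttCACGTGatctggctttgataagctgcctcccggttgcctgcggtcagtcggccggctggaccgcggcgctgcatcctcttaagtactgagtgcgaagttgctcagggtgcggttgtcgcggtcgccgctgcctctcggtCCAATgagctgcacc
The Gbe1 window held 1 GC box, starting at base 278 from the 5′ end, and none of the other motifs. The Ugp2 window held 1 GC box at base 175 and 2 CCAAT boxes at bases 202 and 281. The Ppp1r3c window held 1 E-box at base 147, between 2 CCAAT boxes at bases 127 and 286. Of 32851 promoters of this length in the table, 7.15% held the E-box, 1.79% the cyclic AMP response element, 3.65% the FOXO core, 35.7% the GC box and 37.4% the CCAAT box. Among the other windows of the 7 genes, only that of Gyg held an E-box, at base 259, and the cyclic AMP response element and the FOXO core were in none. A match of letters is a description and shows no binding.

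Per length, the genes spanned a wide range of levels. Pygl was the most abundant, at 94.9 ± 26.9 RPKM in HFD+MEC1, 132 ± 16.1 RPKM in HFD and 124 ± 6.20 RPKM in ND (SD, n = 4 each, as for all means below). Ugp2 and Ppp1r3b followed, with means over the 12 libraries of 66.3 and 60.9 RPKM and ranges of 34.6 to 119 and 30.4 to 86.5 RPKM, which overlapped. Gbe1, Ppp1r3c and Gys2 came next at 33.4, 30.1 and 28.5 RPKM, again with overlapping ranges. Gyg and Phka2 were low, at 2.46 and 2.36 RPKM, and Ppp1r3g was at 0.196 RPKM with libraries listed at 0. The liver isoenzymes made up nearly all of their kind: the Gys2 share of Gys1 and Gys2 RPKM was 96.9 to 99.4% over the 12 libraries, and the Pygl share of Pygl, Pygb and Pygm was 97.1 to 99.3%. Phka2 made up less of its pair with Phka1, at 65.8 to 78.2%.

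**Figure D1:**
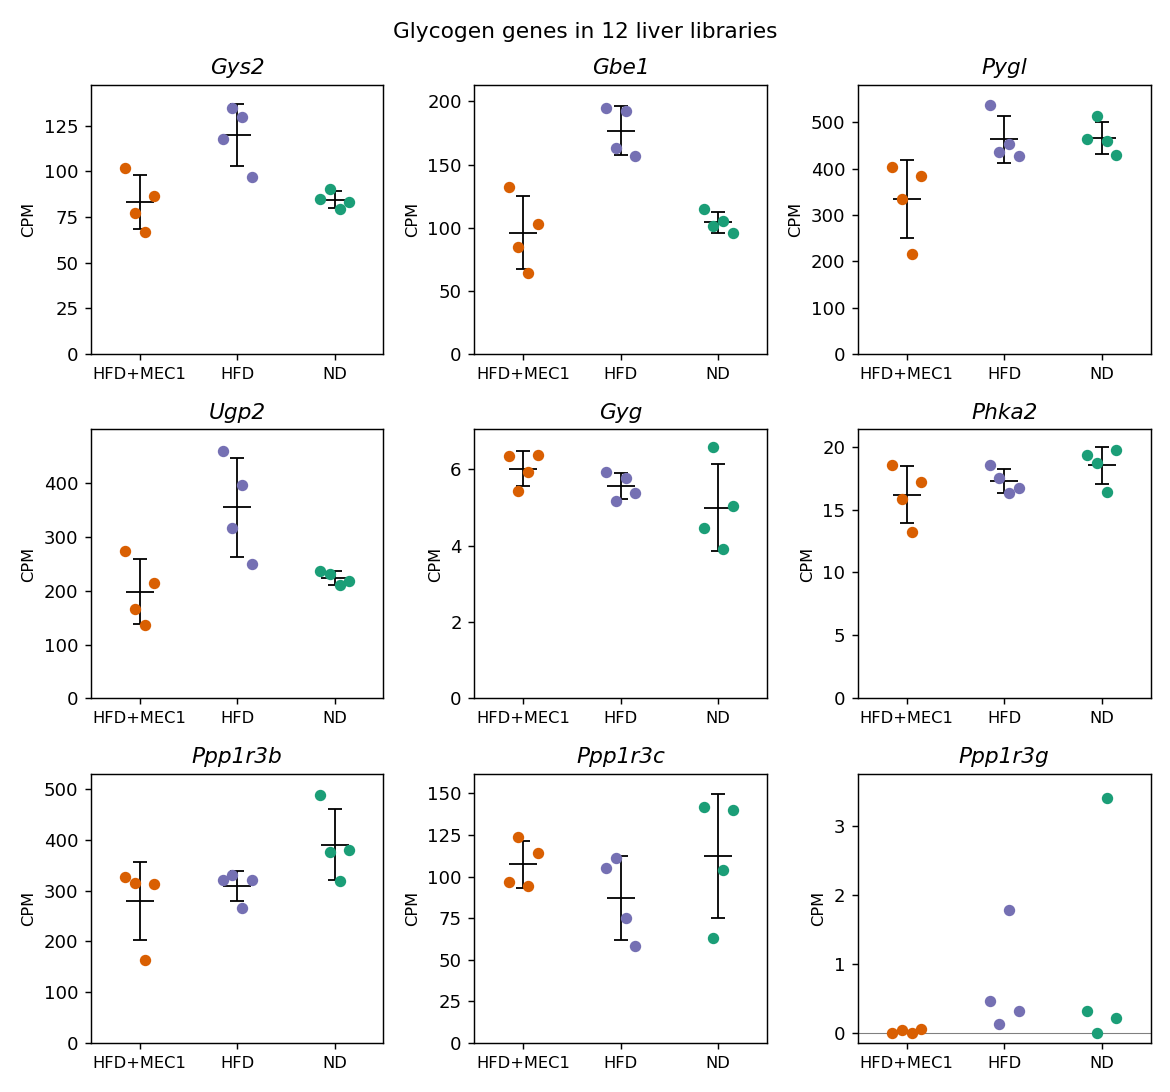
CPM of the 9 glycogen genes in each library (points, replicates 1 to 4 from left to right within a group), with mean and SD as bars except for Ppp1r3g, whose counts were too few; the y axes are linear. Gys2, Gbe1 and Ugp2 are higher in HFD than in ND without overlap, and the HFD+MEC1 points of these 3 genes lie around those of ND.

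HFD minus ND asked what the diet, with vehicle injection, did to the liver. Gys2 and Gbe1, whose enzymes lengthen and branch the glycogen chain, rose on HFD, by 1.42-fold and 1.69-fold. Ugp2, which makes the UDP-glucose that the synthase uses, was 1.59-fold higher without passing the test. Gyg, whose product starts the chain, did not pass either (edgeR adjusted p = 0.644). Pygl, a gene of breakdown, averaged 464 ± 50.2 CPM in HFD livers and 467 ± 35.1 CPM in ND. Of the 9 genes 2 rose, 0 fell and 7 did not pass, where 6.30% of all tested genes were called (3.35% higher, 2.95% lower); the median log2 fold change was -0.01 over the 9 genes and 0.00 over all tested genes. The groups did not overlap for 3 of the 9, all higher on HFD, and for 14.3% of all tested genes (7.46% higher, 6.81% lower).

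Gys2 encodes liver glycogen synthase (ENSMUSG00000030244.7, chromosome 6, 142422613 to 142473109, minus strand; this and other gene positions are on mm10 from GENCODE M21). It stood at 118, 135, 130 and 97.1 CPM in HFD replicates 1 to 4, against 85.1, 90.5, 79.7 and 83.0 CPM in ND replicates 1 to 4. Every HFD library was above every ND library, and the HFD libraries were spread more widely. Its log2 fold change was 0.51 ± 0.12 (edgeR adjusted p = 0.0211). The call did not hold without ND replicate 1, 3 or 4 or HFD replicate 2 or 3, with adjusted p values of 0.0541 to 0.073 and log2 fold changes of 0.44 to 0.50.

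Gbe1 encodes the branching enzyme (ENSMUSG00000022707.16, chromosome 16, 70313949 to 70569716, plus strand). It stood at 195, 163, 192 and 157 CPM in HFD replicates 1 to 4, against 115, 101, 105 and 95.5 CPM in ND replicates 1 to 4. The groups lay well apart, with the lowest HFD library above the highest of ND. Its log2 fold change was 0.76 ± 0.17 (edgeR adjusted p = 0.0166), and the adjusted p was 0.0603 without ND replicate 4 and 0.0597 without HFD replicate 3.

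Ugp2 encodes UDP-glucose pyrophosphorylase (chromosome 11, 21321138 to 21371201, minus strand; 2.54% of its exonic bases are shared with a gene on the other strand, and the use of strand in counting is not given). It stood at 459, 316, 395 and 249 CPM in HFD replicates 1 to 4, against 237, 230, 210 and 217 CPM in ND replicates 1 to 4. HFD replicate 4 came close to the ND libraries and the other 3 were well above them. The log2 fold change of 0.67 ± 0.21 missed the threshold (edgeR adjusted p = 0.0782); it passed without HFD replicate 4 (0.80, adjusted p = 0.0271), with DESeq2 (adjusted p = 0.0136) and with ND and HFD fitted alone (adjusted p = 0.0193).

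The phosphatase-targeting genes showed no such rise on HFD. Ppp1r3b, the liver GL subunit (chromosome 8, 35375739 to 35388139), averaged 310 ± 29.8 CPM in HFD livers and 390 ± 70.8 CPM in ND (log2 fold change -0.33 ± 0.19, edgeR adjusted p = 0.338). Ppp1r3c (chromosome 19, 36731731 to 36736653), whose product is also called PTG, averaged 87.2 ± 25.2 CPM in HFD livers and 112 ± 37.1 CPM in ND (-0.36 ± 0.27, edgeR adjusted p = 0.49). Its spread within a group was wide, with HFD replicates at 105, 111, 74.8 and 58.0 CPM and ND replicates at 142, 63.3, 104 and 140 CPM, so the groups overlapped over most of their range. Gyg (chromosome 3, 20122084 to 20155317) and Phka2 (chromosome X, 160502166 to 160598878), a regulatory subunit of phosphorylase kinase, differed by 0.15 ± 0.16 and -0.10 ± 0.11 on the log2 scale, with adjusted p values from edgeR of 0.644 and 0.653. Pygl (chromosome 12, 70190811 to 70231488) was at -0.01 ± 0.16 (edgeR adjusted p = 0.981), and its sign turned with library totals or RPKM in place of TMM, at 0.12 and 0.08. Scaling by library totals moved the median of all genes by 0.12, and Gys2 and Gbe1 were called under every scaling tried.

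**Figure D2:**
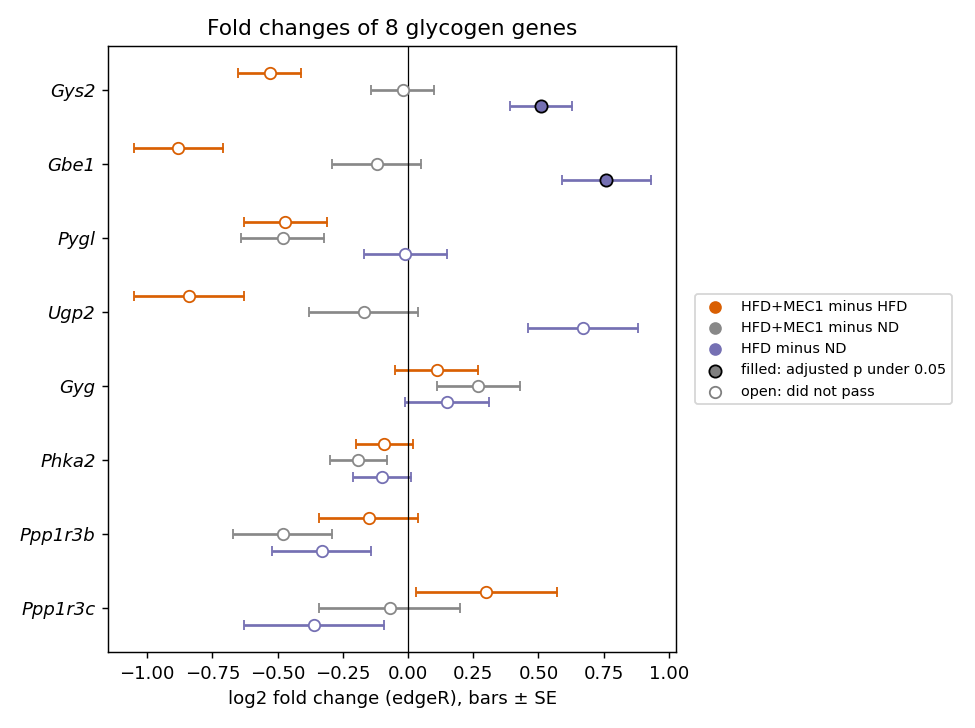
Log2 fold changes of 8 glycogen genes from edgeR (points) with their SE (bars) for HFD+MEC1 minus HFD, HFD+MEC1 minus ND and HFD minus ND; filled points passed an adjusted p of 0.05. Only Gys2 and Gbe1 in HFD minus ND are filled, and Gys2, Gbe1 and Ugp2 lie to the right of 0 in HFD minus ND and to the left in HFD+MEC1 minus HFD; Ppp1r3g is left out for its low counts.

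HFD+MEC1 minus HFD was the randomised comparison. Gbe1, Ugp2, Gys2 and Pygl were all lower with MEC1, by 0.88, 0.84, 0.53 and 0.47 on the log2 scale, but 0 of the 9 genes passed with edgeR, where 0.0282% of all tested genes were called (0.00706% higher, 0.0212% lower). At an unadjusted p under 0.05 there were 5 of the 9, against 2101 of the 14172 tested genes, and DESeq2 called 3 (Gbe1, Gys2 and Ugp2) and 389 genes in all. The median log2 fold change was -0.47 over the 9 genes and 0.01 over all tested genes, and 7 of the 9 were negative, as were 48.9% of all tested genes. Without HFD+MEC1 replicate 3 the median of the 9 was -0.30 and 5 of them were below 0 at 2 decimals. The groups did not overlap for 3 of the 9, all lower with MEC1 (Gbe1, Pygl and Ppp1r3g), and for 7.11% of all tested genes (3.98% lower, 3.13% higher). This comparison and HFD minus ND use the same HFD libraries, so a high value in HFD enters both with opposite sign, and the values of both are given for each gene without a test of their opposition.

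Gbe1 stood at 132, 84.5, 64.2 and 103 CPM in HFD+MEC1 replicates 1 to 4, against 195, 163, 192 and 157 CPM in HFD replicates 1 to 4. All HFD+MEC1 libraries were below all HFD libraries, with HFD+MEC1 replicate 1 the nearest. Its log2 fold change was -0.88 ± 0.17 (edgeR adjusted p = 0.0701), and it was -0.72 without HFD+MEC1 replicate 3 (adjusted p = 0.0874). It passed without HFD+MEC1 replicate 1 (-1.07, adjusted p = 0.00558), without HFD replicate 4 (-0.93, adjusted p = 0.0443), with DESeq2 (adjusted p = 0.000251) and with the replicate number as a block (-0.91, adjusted p = 0.0449).

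Ugp2 stood at 274, 166, 137 and 214 CPM in HFD+MEC1 replicates 1 to 4, against 459, 316, 395 and 249 CPM in HFD replicates 1 to 4. The groups overlapped only through HFD+MEC1 replicate 1 and HFD replicate 4. Its log2 fold change was -0.84 ± 0.21 (edgeR adjusted p = 0.113), -0.69 without HFD+MEC1 replicate 3 (adjusted p = 0.227), -1.04 without HFD+MEC1 replicate 1 (adjusted p = 0.0157) and -0.98 without HFD replicate 4 (adjusted p = 0.0443). DESeq2 called it (adjusted p = 0.00423).

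Gys2 stood at 102, 77.2, 66.9 and 86.6 CPM in HFD+MEC1 replicates 1 to 4, against 118, 135, 130 and 97.1 CPM in HFD replicates 1 to 4. As for Ugp2, the overlap was that of HFD+MEC1 replicate 1 with HFD replicate 4. Its log2 fold change was -0.53 ± 0.12 (edgeR adjusted p = 0.101), -0.43 without HFD+MEC1 replicate 3 (adjusted p = 0.204), -0.64 without HFD+MEC1 replicate 1 (adjusted p = 0.0121) and -0.62 without HFD replicate 4 (adjusted p = 0.0385). DESeq2 called it as well (adjusted p = 0.0107).

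Pygl, whose HFD and ND libraries overlapped, stood at 403, 335, 215 and 384 CPM in HFD+MEC1 replicates 1 to 4, against 537, 435, 454 and 428 CPM in HFD replicates 1 to 4. Each HFD+MEC1 library was below each HFD library, and HFD+MEC1 replicate 3 was far below the others. The log2 fold change was -0.47 ± 0.16 (edgeR adjusted p = 0.185) and moved to -0.30 without HFD+MEC1 replicate 3 (adjusted p = 0.337). Without HFD+MEC1 replicate 1 it was -0.57 (edgeR adjusted p = 0.0666).

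Among the regulators, Ppp1r3b stood at 327, 314, 164 and 312 CPM in HFD+MEC1 replicates 1 to 4, against 321, 330, 265 and 321 CPM in HFD replicates 1 to 4. Replicate 3 was the low one in each group, and the log2 fold change was -0.15 ± 0.19 (edgeR adjusted p = 0.764). Without HFD+MEC1 replicate 3 its sign turned, to 0.04 (adjusted p = 0.947). Ppp1r3c stood at 107 ± 14.1 CPM in HFD+MEC1 and 87.2 ± 25.2 CPM in HFD (0.30 ± 0.27, edgeR adjusted p = 0.659). Phka2 stood at 16.2 ± 2.26 CPM in HFD+MEC1 and 17.3 ± 0.973 CPM in HFD, and Gyg at 6.02 ± 0.444 CPM in HFD+MEC1 and 5.56 ± 0.342 CPM in HFD, with edgeR adjusted p values of 0.744 and 0.793. The log2 fold change of Phka2 was -0.09 ± 0.11, and 0.00 without HFD+MEC1 replicate 3.

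Ppp1r3g (chromosome 13, 35958839 to 35970388), another glycogen-targeting subunit, was at the edge of detection. It had 0, 2, 0 and 2 counts in HFD+MEC1 replicates 1 to 4, 20, 6, 90 and 14 counts in HFD replicates 1 to 4, and 14, 0, 141 and 10 counts in ND replicates 1 to 4. The HFD+MEC1 libraries were all below the HFD libraries but overlapped those of ND, of which 1 had no count and 1 had more than any other library. A count of 3, the floor used for a gene without counts, corresponds to 0.0590 to 0.0770 CPM, covering counting error only. The fitted log2 fold change of -4.77 ± 1.69 for HFD+MEC1 minus HFD depends on the prior count added to such low values and is no measure of size (edgeR adjusted p = 0.221). For HFD minus ND the fitted value was -0.53 ± 1.16 (edgeR adjusted p = 0.845), and it turned to 1.91 without ND replicate 3.

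HFD+MEC1 minus ND set the treated livers against those never on the diet. Of the 9 genes 0 passed with edgeR, where 4.54% of all tested genes were called (2.15% higher, 2.40% lower); 3 had an unadjusted p under 0.05, against 2704 of the 14172 tested genes, and DESeq2 called 2, Pygl and Ppp1r3g, and 1155 genes in all. Gys2 stood at 83.3 ± 15.1 CPM in HFD+MEC1 and 84.6 ± 4.54 CPM in ND, a log2 fold change of -0.02 ± 0.12 (edgeR adjusted p = 0.952). Gbe1 stood at 96.0 ± 28.9 CPM in HFD+MEC1 and 104 ± 8.36 CPM in ND (-0.12 ± 0.17, edgeR adjusted p = 0.762), and Ugp2 at 198 ± 60.1 CPM in HFD+MEC1 and 224 ± 12.3 CPM in ND (-0.17 ± 0.21, edgeR adjusted p = 0.716). For these 3 genes the HFD+MEC1 libraries lay on both sides of the ND range, with a larger spread than in ND. Without HFD+MEC1 replicate 3 their log2 fold changes were 0.07, 0.03 and -0.03. Pygl was lower in all 4 HFD+MEC1 libraries than in any ND library, at 334 ± 84.7 CPM in HFD+MEC1 and 467 ± 35.1 CPM in ND. Its log2 fold change was -0.48 ± 0.16 (edgeR adjusted p = 0.0936). It was -0.32 without HFD+MEC1 replicate 3 (edgeR adjusted p = 0.138) and -0.58 without HFD+MEC1 replicate 1 (edgeR adjusted p = 0.0501). Pygl was the 1 gene of the 9 without overlap, where 11% of all tested genes had none (5.13% higher, 5.84% lower). Ppp1r3b stood at 279 ± 77.3 CPM in HFD+MEC1 and 390 ± 70.8 CPM in ND (-0.48 ± 0.19, edgeR adjusted p = 0.168; -0.30 without HFD+MEC1 replicate 3), and passed with the replicate number as a block (-0.51, adjusted p = 0.0409). The log2 fold change was 0.27 ± 0.16 for Gyg, -0.19 ± 0.11 for Phka2 and -0.07 ± 0.27 for Ppp1r3c, with edgeR adjusted p values of 0.398, 0.36 and 0.931. Without HFD+MEC1 replicate 3 it was -0.11 for Phka2 and -0.01 for Ppp1r3c. Ppp1r3g, with a fitted value of -5.31 that is again no measure of size, had an adjusted p of 0.103 with edgeR, 0.0487 without ND replicate 2 and 0.0172 with DESeq2.

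Ratios of mRNA levels within a library do not depend on how libraries are scaled. Gys2 to Pygl sets a gene of synthesis against a gene of breakdown, and Gbe1 to Gys2 sets genes of synthesis against each other. The RPKM ratio of Gys2 to Pygl was 0.271 ± 0.0419 in HFD+MEC1, 0.277 ± 0.0471 in HFD and 0.193 ± 0.00940 in ND. All 8 libraries of the high-fat diet, with or without MEC1, were at 0.234 or above, and the 4 ND libraries were at 0.205 or below. Gys2 in HFD+MEC1 was near its ND level, and its ratio to Pygl was not. Pygl averaged 334 ± 84.7 CPM in HFD+MEC1 and 467 ± 35.1 CPM in ND, without passing (edgeR adjusted p = 0.0936). The highest HFD+MEC1 ratio, 0.331, was that of replicate 3, which had the lowest Pygl. HFD+MEC1 replicates 1, 2 and 4 were at 0.27, 0.245 and 0.24. No test was run on the ratios. The ratio of Gbe1 to Gys2 was 1.01 ± 0.126 in HFD+MEC1, 1.32 ± 0.179 in HFD and 1.10 ± 0.107 in ND.

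**Figure D3:**
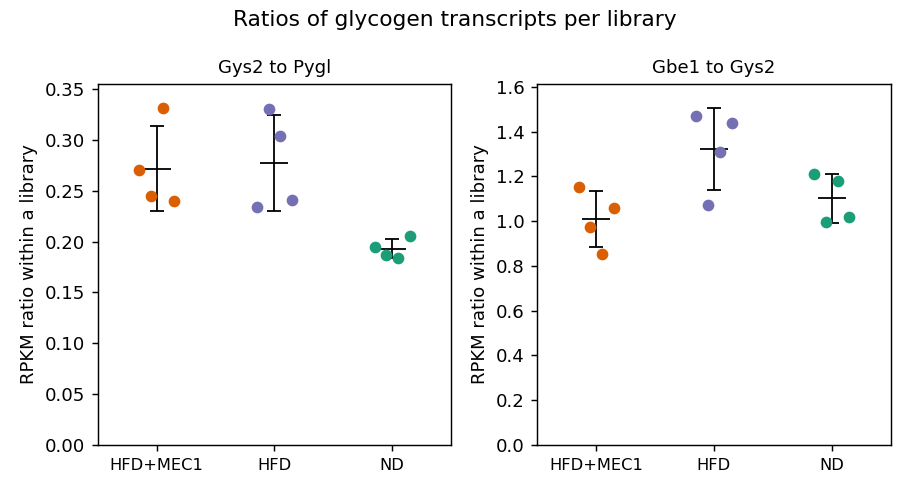
RPKM ratios within each library (points, with mean and SD as bars) for Gys2 to Pygl and Gbe1 to Gys2 in HFD+MEC1, HFD and ND; linear axes start at 0. The Gys2 to Pygl ratio is at 0.234 or above in every high-fat library and at 0.205 or below in ND, while the Gbe1 to Gys2 ratio has its highest mean in HFD.

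With edgeR no gene among the other enzymes and scaffolds of glycogen passed. Of 18 listed genes 16 were tested, and 0 passed with edgeR in any of the 3 comparisons. Of all tested genes 0.0282% were called in HFD+MEC1 minus HFD, 4.54% in HFD+MEC1 minus ND and 6.30% in HFD minus ND. At an unadjusted edgeR p under 0.05 there were 2 of the 16 in HFD+MEC1 minus HFD, against 2101 of the 14172 tested genes. In HFD+MEC1 minus ND there were 1 of the 16 and 2704 of the 14172, and in HFD minus ND 4 and 2928. With DESeq2 Gys1 passed in HFD minus ND and Stbd1 in HFD+MEC1 minus ND, where it called 1391 and 1155 genes in all. Gys1, the synthase gene of muscle and other tissues, had a mean of 1.51 ± 0.352 CPM in HFD livers and 2.85 ± 0.740 CPM in ND (-0.92 ± 0.28, edgeR adjusted p = 0.0592), and it was the most negative of the list there; it stood at 1.94 ± 0.627 CPM in HFD+MEC1 and was the lowest of the list in HFD+MEC1 minus ND too (-0.55 ± 0.27, edgeR adjusted p = 0.292). Epm2a, which encodes the glycogen phosphatase laforin, was the highest of the list in HFD minus ND (0.55 ± 0.35, edgeR adjusted p = 0.4) and the lowest in HFD+MEC1 minus HFD (-0.56 ± 0.35, edgeR adjusted p = 0.486). Stbd1, which binds glycogen, was the highest of the list in HFD+MEC1 minus ND (0.45 ± 0.13, edgeR adjusted p = 0.0697) and passed without HFD+MEC1 replicate 3 (0.57, adjusted p = 0.0107).

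Of the phosphorylase kinase subunits, Phkb stood at 22.8 ± 1.75 CPM in HFD+MEC1, 26.4 ± 0.835 CPM in HFD and 23.8 ± 3.36 CPM in ND. All its HFD+MEC1 libraries were below those of HFD (-0.21 ± 0.10, edgeR adjusted p = 0.342). The catalytic subunit gene Phkg2 stood at 15 ± 2.18 CPM in HFD+MEC1, 11.6 ± 0.760 CPM in HFD and 13.2 ± 1.44 CPM in ND. Every HFD+MEC1 library of Phkg2 was above every HFD library (0.37 ± 0.12, edgeR adjusted p = 0.173). Of the 16 tested genes of the list 1 was lower and 1 higher without overlap in HFD+MEC1 minus HFD. Of all tested genes 3.98% were lower and 3.13% higher without overlap there. A gene on the other strand covers 21.9% of the exonic bases of Phkg2. Such overlap is also 13.6% for Pgm1, 6.47% for Gys1, 4.24% for Mlxipl and 1.9% for Phka2. The phosphoglucomutase genes Pgm2, at 190 ± 15.6 CPM in HFD+MEC1, 201 ± 14.1 CPM in HFD and 189 ± 12.1 CPM in ND, and Pgm1, at 5.64 ± 1.07 CPM in HFD+MEC1, 5.65 ± 0.803 CPM in HFD and 4.44 ± 1.01 CPM in ND, did not pass in any comparison. The symbols of this pair have been exchanged between mouse annotations, so which paralog each row holds is uncertain.

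**Figure D4:**
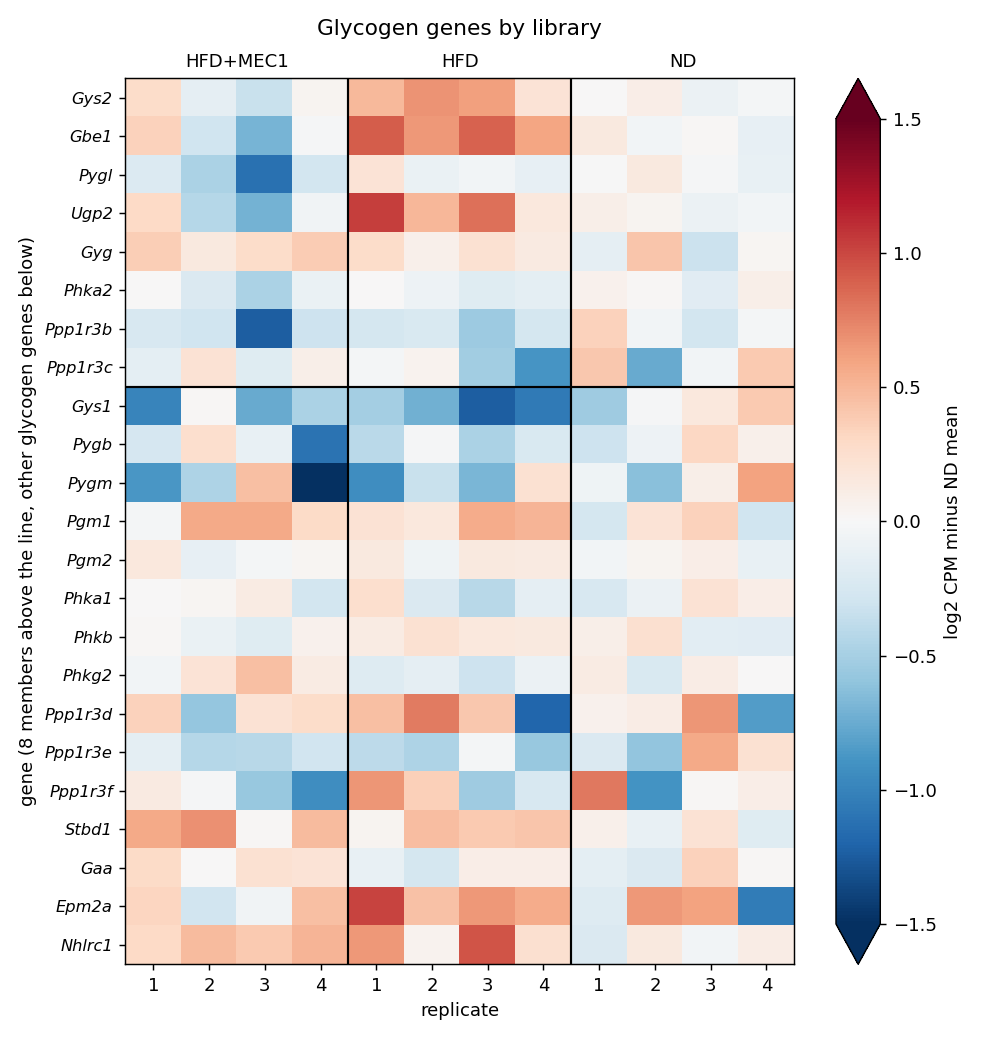
Difference in log2 CPM from the ND mean for 8 of the 9 glycogen genes (above the line) and 15 other tested glycogen genes (below), by library; colours are capped at 1.5 in either direction. Gys2, Gbe1 and Ugp2 are red in all HFD libraries, and Pygl and Ppp1r3b are at their lowest in HFD+MEC1 replicate 3.

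A further 22 genes, of glucose phosphate entry and exit and of the signalling that acts on these enzymes, were all tested. With edgeR 0 passed in HFD+MEC1 minus HFD, where 0.0282% of all tested genes were called. At an unadjusted edgeR p under 0.05 there were 6 of the 22, against 2101 of the 14172 tested genes. DESeq2 called 2 of the 22, G6pc and Prkaa2, and 389 genes in all. In HFD minus ND 1 of the 22 fell with edgeR, where 2.95% of all tested genes fell. In HFD+MEC1 minus ND 3 fell and 0 rose, where 2.40% of all tested genes fell and 2.15% rose. Mlxipl, which encodes the glucose-responsive factor ChREBP, fell in both high-fat groups relative to ND: it stood at 68.5 ± 11.9 CPM in HFD+MEC1, 62.4 ± 3.18 CPM in HFD and 97.6 ± 8.58 CPM in ND (-0.51 ± 0.11 and -0.65 ± 0.11, edgeR adjusted p = 0.0135 and 0.00284). For HFD+MEC1 minus ND the Mlxipl call did not hold with RPKM at either pseudocount (adjusted p = 0.0562 and 0.0594). G6pc, the glucose-6-phosphatase gene that frees glucose made from glycogen, stood at 185 ± 51.5 CPM in HFD+MEC1, 411 ± 61.4 CPM in HFD and 425 ± 176 CPM in ND. It fell in HFD+MEC1 relative to ND (-1.20 ± 0.28, edgeR adjusted p = 0.0356) and was the lowest of its list relative to HFD (-1.15 ± 0.28, edgeR adjusted p = 0.119). The call against ND did not hold without HFD+MEC1 replicate 2, 3 or 4 or ND replicate 1, at adjusted p values of 0.067 to 0.0907, nor with the replicate block (0.0674), library totals (0.062), no filter (0.0576) or the 2 groups alone (0.0914). Without HFD+MEC1 replicate 3 the log2 fold change of G6pc was -1.03 relative to ND and -0.98 relative to HFD. Prkaa2, a catalytic subunit gene of AMP-activated kinase, stood at 55.7 ± 6.82 CPM in HFD+MEC1, 72.5 ± 5.25 CPM in HFD and 73.7 ± 5.16 CPM in ND and fell relative to ND (-0.40 ± 0.09, edgeR adjusted p = 0.0222); the adjusted p was 0.0515 without HFD+MEC1 replicate 2, 0.0535 without HFD+MEC1 replicate 3 (-0.33), 0.0701 without ND replicate 1, 0.0799 without ND replicate 4, 0.0993 with library totals, and 0.115 and 0.119 with RPKM at pseudocounts of 0.1 and 1.

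The glucose transporter gene Slc2a2 was the highest of the same list in HFD minus ND (0.53 ± 0.22, edgeR adjusted p = 0.206). Akt2, a kinase gene of insulin signalling, was the highest in HFD+MEC1 minus HFD (0.20 ± 0.09, edgeR adjusted p = 0.337) and the glucagon receptor gene Gcgr the highest in HFD+MEC1 minus ND (0.20 ± 0.09, edgeR adjusted p = 0.219).

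The genes whose levels went most closely with Gys2 over the 12 libraries, by the root mean square difference of centred log2 CPM, were Bbox1 (0.096), Skp1a (0.098) and Esd (0.098), beside a spread of Gys2 itself of 0.298. For Gbe1, with a spread of 0.468, they were the carboxylesterase gene Ces2e (0.143), the mitochondrial pyruvate carrier gene Mpc1 (0.165) and the liver pyruvate kinase gene Pklr (0.173).

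In whole liver, fewer cells of a type and less RNA per cell cannot be told apart. In HFD+MEC1 minus HFD, 0 of 7 measured hepatocyte markers passed, where 0.0282% of all tested genes were called, and 4 were positive. Gbe1, Ugp2, Gys2 and Pygl were lower there and did not pass with edgeR either. The hepatocyte markers summed to 73100 to 98400 CPM in HFD+MEC1 and 90000 to 102000 CPM in HFD. In HFD minus ND 1 of the 7 hepatocyte markers fell and 0 rose, beside higher Gys2 and Gbe1. Of all tested genes 2.95% fell and 3.35% rose there. Summed Kupffer cell and other macrophage markers, 8 genes, were 337 to 456 CPM in HFD+MEC1, 289 to 445 CPM in HFD and 229 to 346 CPM in ND. None of the 8 passed, and 7 were positive in HFD+MEC1 minus HFD, 8 in HFD+MEC1 minus ND and 8 in HFD minus ND. Summed endothelial markers, 6 genes, were 231 to 267 CPM in HFD+MEC1, 203 to 261 CPM in HFD and 149 to 226 CPM in ND. Of these 6, 3 were positive in HFD+MEC1 minus HFD, 6 in HFD+MEC1 minus ND and 5 in HFD minus ND. Of 4 adipocyte markers 1 was tested, and it passed in no comparison. The 4 summed to 0.157 to 13.3 CPM in HFD+MEC1, 2.47 to 14.2 CPM in HFD and 0.0414 to 1.26 CPM in ND. The defining markers Adipoq and Lep were at 0 in all HFD and HFD+MEC1 libraries. In ND Lep was at 0 in all libraries and Adipoq was not. Summed cholangiocyte markers, 5 genes, were 36.9 to 89.9 CPM in HFD+MEC1, 39.6 to 59.3 CPM in HFD and 60.6 to 90.3 CPM in ND. Of these 5, 2 were positive in HFD+MEC1 minus HFD, 1 in HFD+MEC1 minus ND and 0 in HFD minus ND. Stellate and fibroblast markers, 8 genes, summed to 180 to 308 CPM in HFD+MEC1, 142 to 334 CPM in HFD and 225 to 373 CPM in ND. None of these 8 passed, and 3 were positive in HFD+MEC1 minus HFD, 0 in HFD+MEC1 minus ND and 3 in HFD minus ND. Of other markers, 4 of 4 for T cells, 3 of 3 for B cells, 3 of 4 for neutrophils and 1 of 4 for exocrine pancreas were tested. None of those tested passed in any comparison. In HFD+MEC1 minus ND 1 of 7 hepatocyte and 1 of 5 cholangiocyte markers fell and 1 of 6 endothelial markers rose. Of all tested genes 2.40% fell and 2.15% rose there. The part of these markers in the results was not tested.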

How the data were processed

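RNA-seq of mouse liver gave 12 libraries, 4 per group. The authors deposited raw counts by gene symbol, in whole numbers and a file per library, and a joint table of RPKM values, per the file headers. STAR 2.7.10a and mm10 are named in the submitters' processing notes; the counting tool, annotation and use of strand are not given in the sources used here. Of the RPKM columns 12 match no sample and were not used. Between 70.1 and 74.7% of counts from 1 to 20 were even in each library, a pattern that counting both ends of a fragment would give, which was not tested. An RPKM above 0 beside 0 counts was found for 244 to 296 genes in each library, so counts and RPKM were not made from identical counts. RPKM served levels between genes, ratios and an alternative test.

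Genes were filtered with filterByExpr of edgeR 4.0.16 (R 4.3.3), which kept 14172 genes with 99.98% of counts, and scaled with TMM. One robust quasi-likelihood model over the 3 groups was tested for 3 differences, two-sided, with Benjamini-Hochberg adjustment over all tested genes; SE is the size of the log2 fold change over the square root of F. Replicates of a group differed by more than sampling noise (chi-square of 35.9 or more per gene). Alternatives were DESeq2 1.42.0, limma-voom and RPKM with limma 3.58.1 (pseudocounts of 0.1 and 1), other scalings, no filter, 2 groups alone, the replicate block and leaving out each library. The edgeR fit was run on simulated counts with equal spread for all genes and no library standing apart. That run therefore cannot show how the fit handles a library such as HFD+MEC1 replicate 3. The 9 genes, the lists of 18 and 22 other genes and the tests were chosen with earlier results of these data known. Named were all 9 genes; from the lists, called genes, the highest and lowest of each comparison and a fixed set of enzymes, of which 2 are not reported here; and the 3 genes most like each called one.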

Additional observations from a re-analysis of the deposited data

Results flagged for a closer look

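Over the 9 glycogen genes and 3 groups, 27 groups of 4 libraries were searched for a library whose gap to its nearest neighbour, as a share of the group's range, passed Dixon's critical value, which chance gives in about 1 group of 20; 3 were found. Ppp1r3b was at 164 CPM in HFD+MEC1 replicate 3, with the rest of the group at 312 to 327 CPM. Ppp1r3b was at 265 CPM in HFD replicate 3, with the rest of that group at 321 to 330 CPM. Ppp1r3g was at 3.41 CPM in ND replicate 3, with the rest of ND at 0 to 0.316 CPM. In HFD+MEC1 replicate 3 summed hepatocyte markers were also the lowest, at 73100 CPM; their part in the low Ppp1r3b value was not tested.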

How the results depend on the processing

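Gys2 and Gbe1 rose on HFD under each alternative that kept all libraries. Without 1 library the number of the 9 genes called ranged from 0 to 3 for HFD minus ND, 0 to 3 for HFD+MEC1 minus HFD and 0 to 1 for HFD+MEC1 minus ND; of other pathway genes, from 1 to 2, 0 to 2 and 1 to 4. All genes called ranged from 423 to 911, 0 to 460 and 334 to 678. In HFD+MEC1 minus HFD the count of 4 became 460 without HFD+MEC1 replicate 1 and 72 without HFD replicate 4, and was 7 without HFD replicate 2 and 0 without any other single library; the causes were not tested. For the comparisons in this order DESeq2 called 1391, 389 and 1155 genes, against 893, 4 and 644 with edgeR; of the 9 genes it called 3 in HFD+MEC1 minus HFD and 2 in HFD+MEC1 minus ND, and of other pathway genes 2, 2 and 5. In HFD+MEC1 minus HFD all genes called were 0 with library totals, 17 without the filter, 2 with the 2 groups alone, 1 with limma-voom, and 0 and 1 with RPKM at pseudocounts of 0.1 and 1. Other pathway genes called were 3 in HFD minus ND with the 2 groups alone, and 1 in HFD+MEC1 minus ND with library totals and with RPKM at either pseudocount. Of called genes in HFD minus ND 53.2% were higher with TMM, 79.5% with library totals and 72.7 and 71.8% with RPKM; in HFD+MEC1 minus ND these shares were 47.2, 66.8, 63.3 and 62.3%.

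With the replicate number as a block, 896 genes were called in HFD minus ND, 21 in HFD+MEC1 minus HFD and 716 in HFD+MEC1 minus ND, and 1 of the 9 genes in each of the last 2 (Gbe1, Ppp1r3b). Nothing says that equal numbers pair the libraries: correlations of same-numbered deviations ran from -0.0942 to 0.133, and 1, 2 and 1 of 4 libraries correlated best with their own number.

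Sign changes concerned values near 0 or rare genes. With library totals the log2 fold change was 0.12 for Pygl, 0.02 for Phka2, 0.07 for G6pc, 0.10 for Prkaa2 and 0.11 for Akt2 in HFD minus ND, and 0.06 for Gys2, 0.02 for Phkb, 0.07 for Epm2a and 0.04 for Slc2a2 in HFD+MEC1 minus ND. With RPKM at pseudocounts of 0.1 and 1 it was 0.08 and 0.08 for Pygl, 0.12 and 0.12 for G6pc, 0.07 and 0.06 for Prkaa2, and 0.08 and 0.07 for Akt2 in HFD minus ND. In HFD+MEC1 minus ND it was 0.04 and 0.04 for Gys2, 0.08 and 0.07 for Ppp1r3c, 0.03 and 0.02 for Phkb, and 0.16 and 0.05 for Epm2a. Ppp1r3g in HFD minus ND was 0.19 with the replicate block, 0.98 with limma-voom and 0.11 with RPKM at 0.1; G6pc there was 0.02 with limma-voom, and Epm2a in HFD+MEC1 minus ND was 0.04 with the block and 0.15 with limma-voom. Leaving out 1 library turned Pygl (-0.09 to 0.04), Ppp1r3g (-1.70 to 1.91), G6pc (-0.20 to 0.24), Prkaa2 (-0.08 to 0.01) and Akt2 (-0.07 to 0.05) in HFD minus ND. It turned Ppp1r3b (-0.23 to 0.04) and Pgm1 (-0.08 to 0.11) in HFD+MEC1 minus HFD. In HFD+MEC1 minus ND it turned Gys2 (-0.14 to 0.07), Gbe1 (-0.31 to 0.03), Ppp1r3c (-0.26 to 0.07), Phkb (-0.11 to 0.03), Pgm2 (-0.04 to 0.05), Epm2a (-0.27 to 0.22) and Slc2a2 (-0.24 to 0.17). Depth limits Ppp1r3g, with at most 2 counts per HFD+MEC1 library.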
